A study of Homo sapiens with 6 samples.

Results

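ATAC-seq libraries were made from 22Rv1 cells, an established human prostate cancer line, in a time course with a degradable FOXA1. In all 6 libraries, 270 regions of the genome gave peaks that were both short and high. They were chosen from 167726 regions, made by merging the peaks of the 6 lists on the autosomes and X wherever they overlapped by 1 bp or more. A member had to hold exactly 1 peak in each list, each at most 400 bp wide and each with a fold at or above the percentile 75 of its own list. Coordinates are on hg19. The fold is the authors' deposited ratio of the read pileup at the summit, the highest point of a peak, to the local background. All libraries carry the label FOXA1_dTAG, a degradation tag on the forkhead factor FOXA1, and there are 2 each for 0 h, 1 h and 24 h. The 0 h cells carry the same tag label, and the labels do not give the degrading molecule or its dose, whether the line is 1 clone, or whether replicates were separate cultures. A p-value over these libraries therefore measures a spread that may be technical. Peak lists hold no gene names, so the cells' identity and the loss of FOXA1 were not checked here.

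ATAC-seq uses a transposase that inserts sequencing adapters where DNA is not wrapped in nucleosomes, so a peak marks an accessible stretch such as an active promoter, an enhancer or the site of a bound factor. The width of a peak depends in part on how far the accessible stretch extends. Its height depends in part on how often that stretch was cut across the cells. FOXA1 is a pioneer factor of luminal prostate cells, known for binding its motif in closed chromatin and helping other factors, among them the androgen receptor, to reach enhancers. In bulk libraries such as these, fewer cells with an open region and a less open region in each cell cannot be told apart.

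The lists held 101755 to 125396 peaks. The relative depth recovered from their background ranged over 8.27 to 10.4 tags per kb for 0 h, 8.15 to 8.61 for 1 h and 7.04 to 7.33 for 24 h. The shortest peak of a list, set by MACS2 from the fragment length it uses, was 111 to 155 bp for 0 h, 160 to 172 bp for 1 h and 136 to 147 bp for 24 h. The 24 h lists were thus the shallowest, and the 1 h lists had the longest shortest peaks. No list of repeats or of sequence that reads map to poorly was used, and how many members lie in such sequence was not tested.

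Short and high peaks were rare. Of the 72695 regions with a peak in all 6 lists, 63045 held exactly 1 in each, here called single-peak regions. The width limit was met in all 6 lists by 11995 of them and the percentile limit by 14649, and the 270 members met both, 0.428% of the single-peak regions. The other 11725 narrow regions, which missed the percentile limit in at least 1 list, and the 14379 wider regions that met it everywhere are the sets against which the members are described. These values chose the members and are given as a description.

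**Figure D1:**
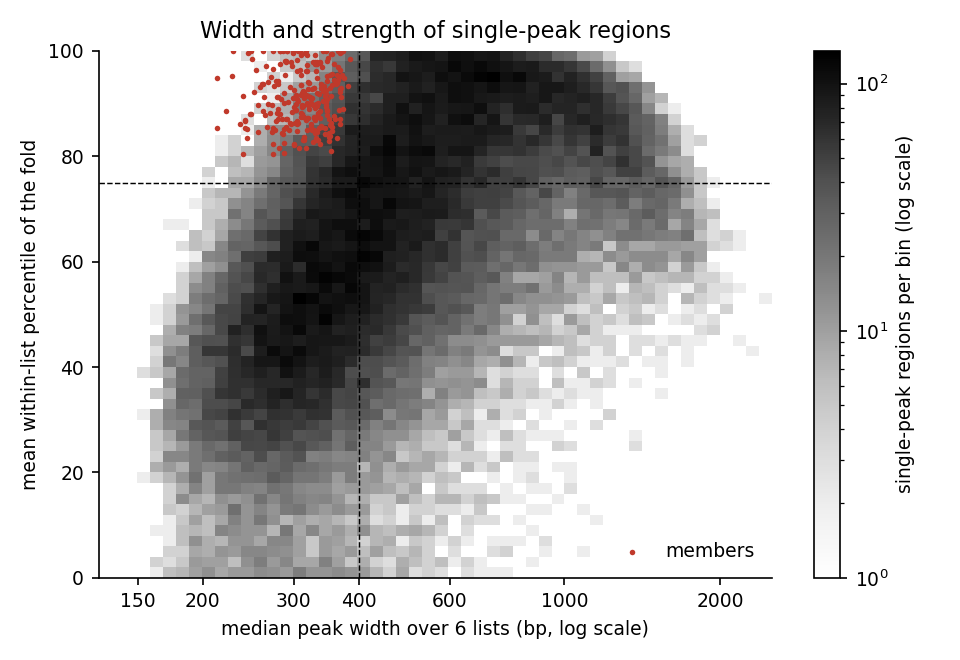
Median peak width over the 6 lists (x axis, bp, log scale) against the mean within-list percentile of the fold (y axis) for the 63045 single-peak regions (grey, number per bin) and the 270 members (red). Dashed lines mark 400 bp and a percentile of 75, and the members sit at the upper left edge of the cloud in which wider regions tend to rank higher.

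At the very top of the strength scale, short peaks were common. Among the 20 single-peak regions with the highest mean percentile, 9 were members and the median width was 369 bp. Among the top 100, 16 were members, with a median width of 473.5 bp, and among the top 1000, 29, with 594.5 bp. Most members were weaker. The median of their mean percentiles was 90.6, with 163 of 270 at or above a percentile of 80 in all 6 lists, 68 at or above 90, and 20 at or above 99.

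The 5 strongest members lay on chromosomes 3, 10, 12 and 9. The first, chr3:196625549-196625861, had folds of 26.6 and 34.7 (0 h), 26.3 and 27.5 (1 h) and 30.3 and 31.1 (24 h). Each of these rested on 77 to 84 tags over a background of 1.33 to 2.15. A 0 h library gave the highest fold and a 1 h library the lowest, and both 24 h values lay between those of 0 h. At chr10:98561264-98561641 the folds were 27.4 and 33.2 (0 h), 26.04 and 27.0 (1 h) and 30.6 and 31.5 (24 h). At chr12:20704242-20704590 they were 25.98 and 35.04, 23.1 and 26.9, and 29.8 and 30.3 at the same times. Both regions had the same order of extremes as the first, with the highest fold at 0 h and the lowest at 1 h. At chr10:103124470-103124810 the folds were 24.5 and 30.2 (0 h), 26.8 and 27.4 (1 h) and 27.9 and 27.4 (24 h), with 119 tags in 0 h replicate 1. At chr9:44070574-44070893 they were 25.2 and 32.6, 25.1 and 27.6, and 26.9 and 27.05. In all 5 regions 0 h replicate 2, the library with the smallest shortest peak, gave the highest fold. Whether any of them lies in repeats or in sequence that reads map to poorly was not tested.

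The 3 members nearest the median strength were chr6:109156439-109156823, chr9:28212929-28213341 and chr9:75665733-75666115. The first had folds of 13.3 and 16.9 (0 h), 11.2 and 12.6 (1 h) and 11.6 and 11.2 (24 h). The second had 12.98 and 13.6, 10.0 and 11.8, and 13.5 and 13.3, and the third 11.5 and 14.1, 11.2 and 12.3, and 14.7 and 11.7. Both 0 h values stood above all later ones in the first region, both 1 h values were the lowest in the second, and the times overlapped in the third. The last 2 regions lie far apart on chromosome 9 and share no peak.

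Over all members the fold ran from 8.86 to 35.04 and the −log10 q from 15.3 to 189. Median folds were 12.3 and 14.5 (0 h), 11.7 and 12.6 (1 h) and 13.01 and 13.3 (24 h). Median summit pileups were 36 and 31 tags (0 h), 30 and 34 (1 h) and 31 and 28.5 (24 h). In wider intense regions they were 67 and 50, 62 and 63, and 52 and 48 tags. The local background of members was close to the most frequent background of each list, with a median ratio of 1.08 to 1.19, against 2.55 to 2.73 around wider intense regions. At equal folds, members therefore held fewer tags than wider regions. At a pileup of the members' lower quartile, 1 tag more moved the rank among single-peak regions by 2.21 to 3.01 percentile points.

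Member peaks were narrowest in 0 h replicate 2, with a median width of 264.5 bp, and widest in 1 h replicate 1, with 345 bp. The other libraries had 324.5 bp (0 h replicate 1), 335.5 bp (1 h replicate 2), 297.5 bp (24 h replicate 1) and 293 bp (24 h replicate 2). The 6 libraries had the same order in member width as in shortest peak. Whether fragment length or time sets these widths cannot be told apart between 1 h and the other times, since both 1 h lists had longer shortest peaks than all other lists. The narrowest members were chr8:7079481-7079735, with a median of 213 bp, chr2:62957802-62958092, with 213.5 bp, and chr2:242848472-242848754, with 222 bp. The first had folds of 13.7 and 13.2 (0 h), 9.47 and 10.9 (1 h) and 9.63 and 11.4 (24 h), so both 0 h values stood above all later ones. The second was uneven between replicates, with 13.7 and 22.4 (0 h), 11.7 and 12.2 (1 h) and 17.3 and 13.3 (24 h). The third had 12.4 and 15.9 (0 h), 11.2 and 10.1 (1 h) and 11.3 and 11.7 (24 h), with its 6 summits within 9 bp. A single list often decided membership. The percentile limit was met everywhere and the width limit missed in exactly 1 list by 271 further regions, in 128 of them in 1 h replicate 1, and the rule applied without that library gives 475 regions. The width limit was met everywhere and the percentile limit missed in exactly 1 list by 200.

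**Figure D2:**
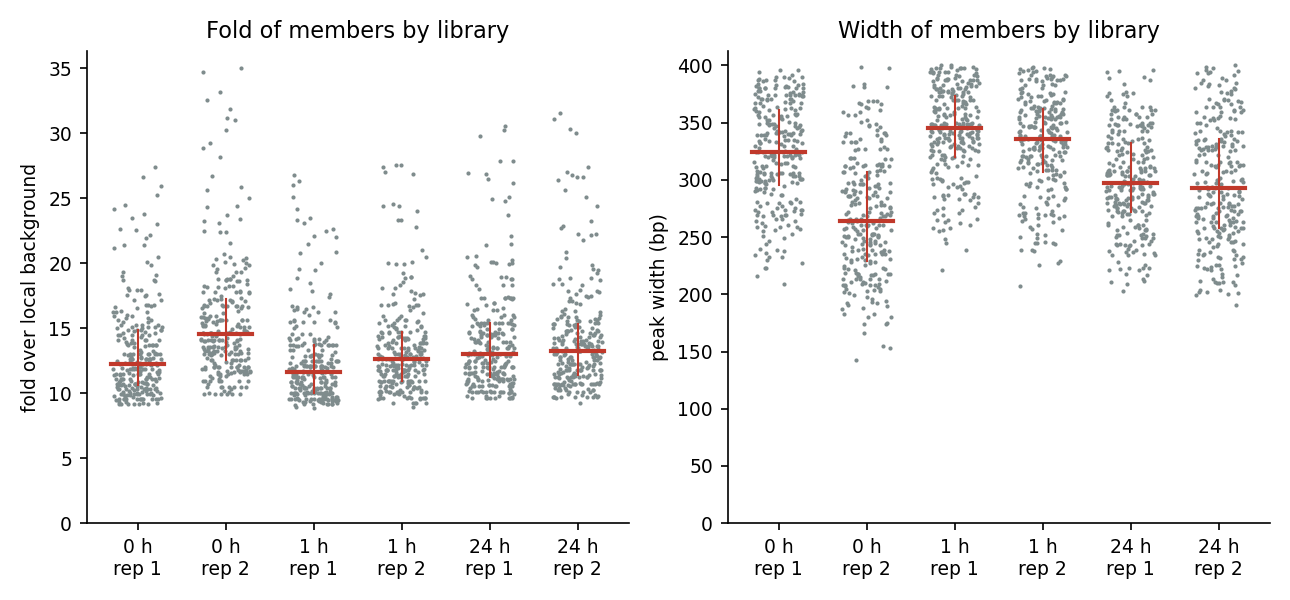
Fold over local background (left) and peak width in bp (right) of the 270 members in each library (grey points), with the median (thick red line) and the quartiles (thin red line). Median folds lie between 11.7 and 14.5, and median widths between 264.5 bp in 0 h replicate 2 and 345 bp in 1 h replicate 1.

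Near the width limit, chr18:4510703-4511119, chr18:43904509-43904922 and chr21:10492768-10493167 were just inside, with a widest peak of 400 bp. Regions chr1:58432672-58433113, chr4:39570561-39570962 and chr6:19410712-19411137 were just outside, with 401 bp in 1 h replicate 1. Near the percentile limit, chr3:63979268-63979719 (75.03), chr1:99387423-99387733 and chr3:107140008-107140353 (both 75.06) were just inside. Regions chr4:94791998-94792430 (74.9), chr1:95552657-95553049 (74.8) and chr2:92275812-92276091 (74.8) were just outside.

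The position of the summit was not part of the rule, and in members the 6 summits lay closer together than in either of the other sets. The outermost of the 6 summits lay a median of 47 bp apart (quartiles 29 and 62 bp, n = 270). In narrow regions below the percentile limit the distance was 89 bp (63 and 124 bp), and in wider intense regions 76 bp (51 and 118 bp). It was at most 20 bp in 39 members (14.4%), against 1.76% of the weaker narrow regions and 3.21% of the wider intense ones. It exceeded 100 bp in 6 members (2.22%), against 40.3% and 33.01%. A peak's width bounds this distance and its tag number affects how well a summit is placed, and the sets differ in both. Their part in the result was not tested beyond classes of width. Within classes of width the members were also lower, with 25, 37, 50 and 58 bp in the classes up to 250, 300, 350 and 400 bp, against 85, 90, 94 and 95 bp in weaker narrow regions. The first class holds only 18 members. No p is given, because regions are not replicates.

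**Figure D3:**
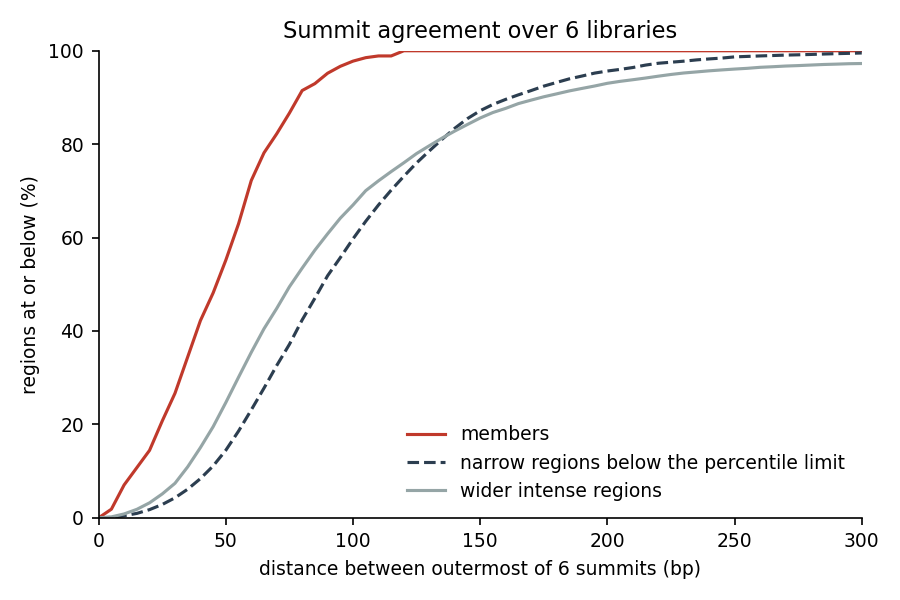
Cumulative share of regions (y axis, percent) by the distance between the outermost of the 6 summits (x axis, bp) for members (red), narrow regions below the percentile limit (dashed) and wider intense regions (grey). The member curve reaches 55.2% at 50 bp, where the others stand at 14.5% and 24.7%.

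The tightest placement was among the strongest members. In the strongest of 5 groups of 54 members, ordered by mean percentile (96.3 and above), the median summit distance was 27.5 bp, against 45.5 to 52.5 bp in the 4 weaker groups, while the median width was 310.5 to 326.5 bp over the groups. Tag number differed with strength. Members with a mean percentile of 99 or more had a median pileup of 57 tags and a median summit distance of 27 bp. The rest had 30 tags and 49 bp, and the part of tag number was not tested. The strongest member had its 6 summits within 21 bp, chr12:20704242-20704590 within 16 bp and chr9:44070574-44070893 within 20 bp. Over the 270 members Spearman's rho was −0.26 between mean percentile and summit distance, 0.31 between width and summit distance, and 0.085 between mean percentile and width, as descriptions of regions that share their libraries.

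Distances between summits of replicates and of different times overlapped. The median distance in members was 17 bp between the 0 h replicates, 13 bp between the 1 h replicates and 12 bp between the 24 h replicates. It was 14 to 15 bp for a 24 h against a 0 h library, 13 to 19.5 bp for a 1 h against a 0 h library and 13 to 16 bp for a 24 h against a 1 h library. All 6 summits lay inside the stretch shared by all 6 peaks in each of the 270 members (other sets not counted). That shared core had a median of 239 bp, 64.1% of the merged region, against 44.0% in weaker narrow regions and 70.9% in wider intense ones. Member summits also sat near the middle of their peaks, a median of 6.19% of the width from the centre, against 10.2% and 10.4% in the other sets.

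To follow the members over time, folds were ranked in each library among the 63045 single-peak regions, so that all lists had one length. A member was called lower or higher at a time when the ranks of both its libraries lay below or above both of the other time. The rule required high folds at every time and so limits these differences, which are a description. At 24 h, 51 members (18.9%) were lower than at 0 h, where 22.3% of all single-peak regions were, and 68 (25.2%) were higher, where 25.6% were. Both shares are near those of all regions. At 1 h, 65 members (24.1%) were lower than at 0 h and 42 (15.6%) higher, beside 20.5% and 22.3% of all single-peak regions. Between 24 h and 1 h, 38 members (14.1%) were lower at 24 h and 82 (30.4%) higher, beside 21% and 22.7%. The comparisons of 1 h and 24 h with 0 h share the 0 h libraries.

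These shares, and in part their direction, changed when single libraries were left out. Doing so leaves 1 library in place of 2 to meet the condition at that time, and also changes the members, since the rule is applied to 5 lists. The looser condition holds for all single-peak regions too, and their shares under these settings are not given. The values that follow describe the members alone and are not set against all regions. For 24 h against 0 h, 41.2% were lower and 37.2% higher with 0 h replicate 1 left out, so lower calls then outnumbered higher ones. With 0 h replicate 2 left out it was 27.1% lower and 46.5% higher, with 24 h replicate 1 left out 28.4% and 36.1%, and with 24 h replicate 2 left out 31.8% and 38.7%. For 1 h against 0 h, 47.98% were lower and 28.3% higher with 0 h replicate 1 left out, and 30.6% lower and 33.9% higher with 0 h replicate 2 left out, where the direction turned. With 1 h replicate 1 left out it was 36.2% lower and 32.8% higher, and with 1 h replicate 2 left out 40.7% and 23.6%. For 24 h against 1 h, 29.9% were lower and 39.8% higher with 1 h replicate 1 left out, and 25.96% and 47.5% with 1 h replicate 2 left out. With 24 h replicate 1 left out it was 26.3% lower and 45.9% higher, and with 24 h replicate 2 left out 29.2% and 41.5%.

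The shares also depended on the regions among which ranks were taken. Ranks among the members alone have the same mean in each library. They remove any shift that the members share and cannot test for one. So ranked, 15.6% were lower and 20% higher at 1 h against 0 h, the opposite direction. For 24 h against 1 h it was 20.4% lower and 21.9% higher, and for 24 h against 0 h 20.7% both lower and higher. With a width limit of 300 bp, which leaves 26 members, 26.9% were lower and 11.5% higher at 24 h against 0 h, also the opposite direction.

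Narrow regions below the percentile limit gave shares close to the members', with 24.9% lower and 15.7% higher at 1 h against 0 h, and 13.7% lower and 27.7% higher at 24 h against 1 h. Wider intense regions gave 14.99% lower and 25.1% higher at 1 h against 0 h, and 21.4% both lower and higher at 24 h against 1 h. In these calls with all libraries, lower outnumbered higher among narrow regions at 1 h against 0 h, and higher outnumbered lower among wider intense ones. The 1 h lists had the longest shortest peaks, and the part of fragment length was not tested.

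**Figure D4:**
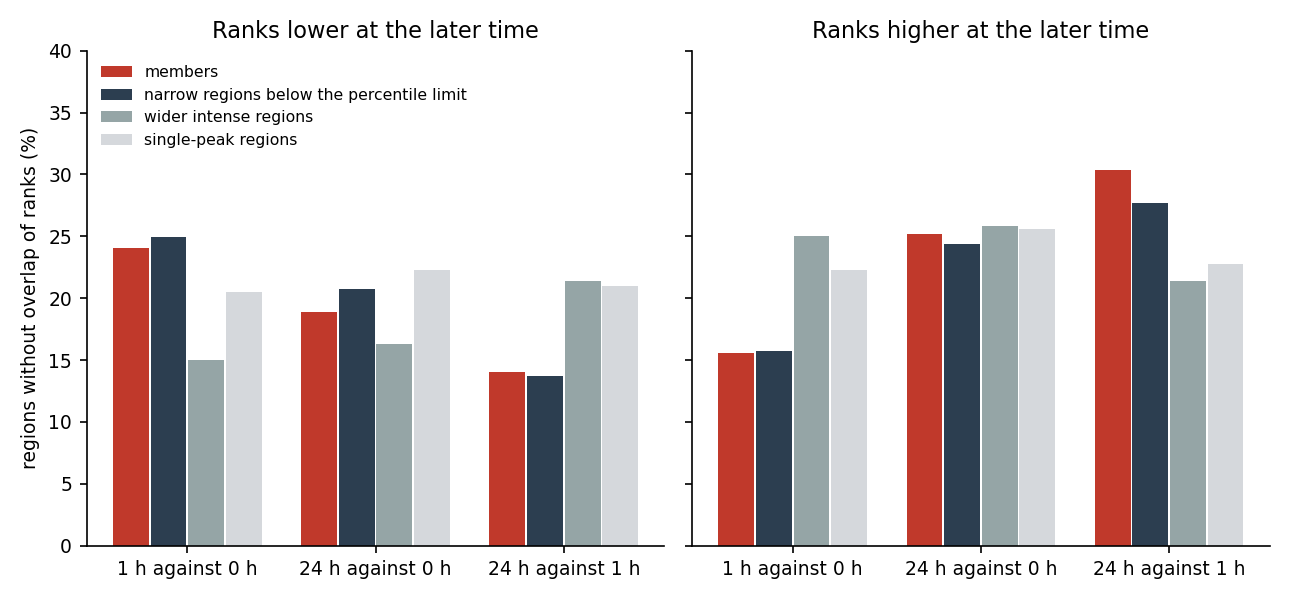
Share of regions (y axis, percent) whose ranks did not overlap between 2 times and were lower (left) or higher (right) at the later time, for members, narrow regions below the percentile limit, wider intense regions and all single-peak regions. Members and weaker narrow regions stand close together, with the widest gap to wider intense regions at 1 h against 0 h.

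Members moved in both directions. The difference in mean rank had a median of 0.030 percentile points for 24 h against 0 h, with quartiles of −5.30 and 6.08. For 1 h against 0 h the median was −1.13 (quartiles −5.84 and 2.92), and for 24 h against 1 h it was 1.46 (−3.31 and 7.84). The absolute gap between the replicates of a member had a median of 6.41 points (0 h), 5.18 (1 h) and 4.73 (24 h). The largest single differences for 24 h against 0 h were −26.2 and 29.9 points. Ranks were steadiest in the strongest group of 54, with a median SD over the 6 libraries of 1.28 points, against 6.50 to 9.33 in the weaker groups, where the scale leaves more room. Folds of single libraries correlated across the 270 members with a Spearman's rho of 0.60 to 0.68 between replicates of one time, 0.41 to 0.51 between 24 h and 0 h, 0.46 to 0.67 between 1 h and 0 h, and 0.51 to 0.61 between 24 h and 1 h. The points share their libraries and were selected on these folds.

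Of the members ranked lower at 24 h than at 0 h, chr13:32583500-32583854 differed most. Its folds were 13.1 and 15.7 (0 h), 10.1 and 10.5 (1 h) and 10.2 and 9.27 (24 h). Its pileups were 38 and 31 tags (0 h), 29 and 28 (1 h) and 23 and 21 (24 h). The exact 95% Poisson intervals of these pileups, which cover counting error only, were 14.6 to 34.5 and 13.0 to 32.1 tags in the 24 h libraries, and 26.9 to 52.2 and 21.1 to 44.0 tags in the 0 h libraries. Each 24 h interval overlapped both of 0 h. The second, chr4:20508415-20508792, had folds of 17.9 and 18.3 (0 h), 11.7 and 10.9 (1 h) and 10.1 and 11.2 (24 h), with pileups of 46 and 34, 27 and 25, and 20 and 21 tags. Its intervals were 12.2 to 30.9 and 13.0 to 32.1 tags in the 24 h libraries, which were shallower, and 33.7 to 61.4 and 23.5 to 47.5 tags in the 0 h libraries. Those of the first replicates did not overlap and those of the second did, in a region named for its large difference. In chr11:10130848-10131290 the folds were 14.9 and 20.4 (0 h), 14.2 and 13.9 (1 h) and 10.1 and 11.2 (24 h). Both 1 h values lay below those of 0 h, the first by little, and both 24 h values lay below them all. The other 2 were chr5:89843973-89844345, with 15.8 and 13.9 (0 h), 11.8 and 11.3 (1 h) and 10.1 and 10.2 (24 h), and chr14:90341271-90341555, with 12.6 and 14.1, 11.7 and 11.8, and 10.1 and 9.71. In both, each later time lay below the one before.

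Of the members ranked higher at 24 h than at 0 h, chr4:34048229-34048636 differed most. Its folds were 9.54 and 10.96 (0 h), 12.1 and 13.5 (1 h) and 14.9 and 17.9 (24 h), and its pileups 24 and 20, 28 and 31, and 30 and 34 tags. The 3 times did not overlap in fold, although the 24 h libraries were the shallowest. The exact Poisson intervals of these pileups were 20.2 to 42.8 and 23.5 to 47.5 tags in the 24 h libraries. In the 0 h libraries they were 15.4 to 35.7 and 12.2 to 30.9 tags. Each 24 h interval thus overlapped both of 0 h, and the same held in each of the higher-ranked regions that follow. In chrX:48726276-48726663 the folds were 9.93 and 9.92 (0 h), 10.0 and 10.9 (1 h) and 14.3 and 14.5 (24 h). The 1 h values stood close to 0 h and both 24 h values above them. In chr18:26727871-26728238 they were 9.16 and 9.92 (0 h), 9.17 and 12.6 (1 h) and 13.0 and 13.3 (24 h), so 1 of the 1 h values lay within the 0 h range and the other near 24 h. In chr1:153072724-153073106 they were 9.54 and 11.6, 11.5 and 13.5, and 14.6 and 14.3 at 0 h, 1 h and 24 h. In chr4:149753119-149753507 they were 10.7 and 12.01, 12.1 and 14.7, and 20.03 and 17.6 at these times, with the highest single 24 h fold of the 5.

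**Figure D5:**
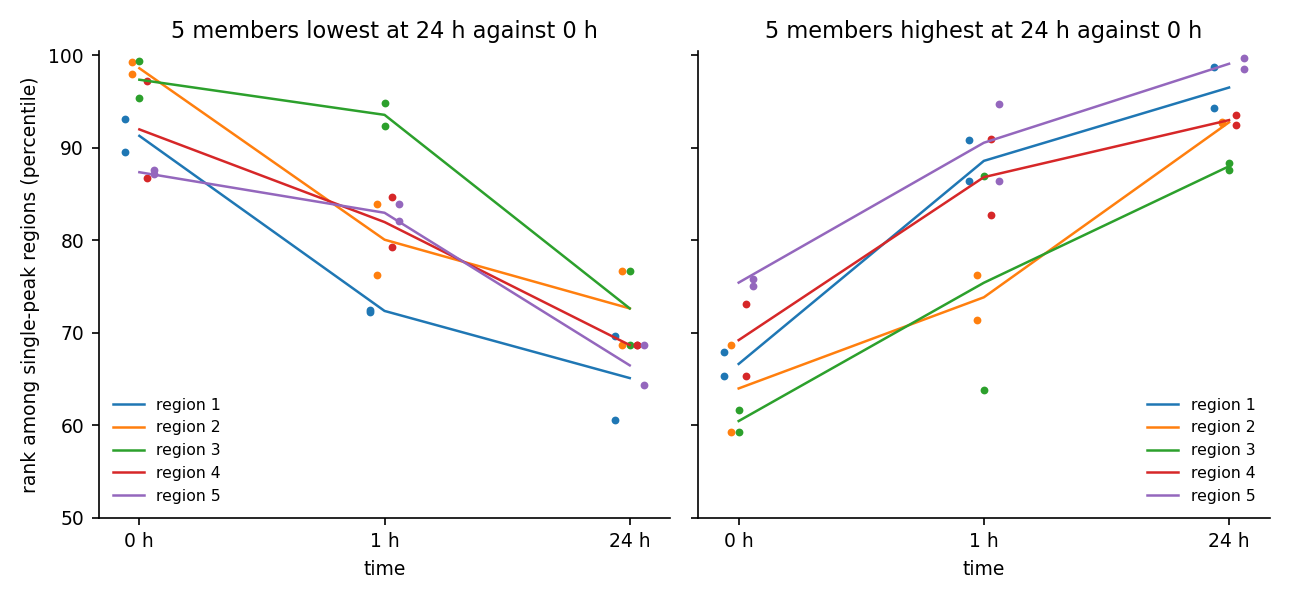
Rank among the 63045 single-peak regions (y axis, percentile, drawn from 50 up) by time for the 5 members with the lowest (left) and the 5 with the highest (right) mean rank at 24 h relative to 0 h, numbered 1 to 5 in the order of the text. Points are libraries, lines join the means, and in each panel the 0 h and 24 h points of a region do not overlap, since that chose them.

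Members were scattered along the genome. They fell into 248 windows of 1 Mb, of which 227 held exactly 1 member and none more than 3. The median distance to the nearest other member was 3781 kb, and 14 members had another within 100 kb. The closest pairs were chr8:7255280-7255649 and chr8:7281719-7282108 at 26.4 kb, chr9:126840174-126840566 and chr9:126872591-126873000 at 32.4 kb, and chr18:45342204-45342619 and chr18:45379515-45379917 at 37.3 kb. In the pair on chromosome 8, the first had folds of 13.9 and 21.6 (0 h), 14.3 and 14.4 (1 h) and 16.0 and 19.8 (24 h), and the second 14.8 and 18.6, 15.5 and 13.9, and 16.6 and 14.7. In the pair on chromosome 9, the first had 11.9 and 15.9, 13.8 and 13.3, and 13.1 and 15.4, and the second 12.2 and 20.3, 12.1 and 13.01, and 10.6 and 14.04. The times overlapped in all 4 of these regions for 24 h against 0 h. In the pair on chromosome 18, the first had folds of 17.5 and 18.7 (0 h), 12.4 and 15.5 (1 h) and 12.03 and 12.9 (24 h), whereas the second had 17.6 and 18.8, 16.2 and 16.8, and 20.6 and 18.9.

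Members made up more of the single-peak regions on chromosomes with fewer genes per Mb. Over the whole set there were 4.28 members per 1000 single-peak regions. Chromosome 21 had 7.97 (95% exact binomial interval 2.93 to 17.3), chromosome 13 had 7.84 (4.06 to 13.7) and chromosome 8 had 7.09 (4.50 to 10.6). Chromosome 19 had 0.846 (0.102 to 3.05) and chromosome 16 had 1.02 (0.123 to 3.67), with 2 members each. Across the 23 chromosomes Spearman's rho with protein-coding gene density was −0.80 for the members, −0.65 for weaker narrow regions and 0.42 for wider intense regions. Chromosomes differ in length and share all libraries, so these are descriptions without a p.

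The nearest region of any kind lay a median of 6.61 kb away (quartiles 2.80 and 13.2 kb), against 3.90 kb for weaker narrow regions and 8.01 kb for wider intense ones. A 1 Mb window with a member held a median of 64 regions, against 69 over all regions. Within 50 kb a member had a median of 6 other regions, and 5 of 270 had none.

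Neighbours of members were lost at 24 h about as often as other regions. A region was called lost when both 0 h lists held a peak and neither 24 h list did, as 13.1% of all regions with a peak in both 0 h lists were. Of 1053 such neighbours within 50 kb of a member, 122 (11.6%, exact binomial interval 9.71 to 13.7%) were lost at 24 h, against 10.8% around all single-peak regions and 11.03% around wider intense ones. In both of these larger sets a region counts once for each set region near it, so it can count several times. Around single-peak regions there were 314108 such counts, from 99494 regions with a peak in both 0 h lists. The 13.1% counts each region once. At least 1 lost neighbour was found near 90 members (33.3%), against 39.98% of single-peak regions, which had a median of 7 neighbours. The members' share of lost neighbours was 21.2% with 0 h replicate 1 left out and 18.9% with 0 h replicate 2 left out. With 24 h replicate 2 left out it was 19.6%. In these settings a single list stands for a time and the members change. The looser condition holds for all regions too, and their share lost under these settings is not given. These values are thus not set against the shares above. With all libraries, the share was higher around the strongest members, set apart here by the percentile that the rule also used. Around the 68 members with a percentile of at least 90 in all 6 lists, 51 of 271 neighbours (18.8%, interval 14.3 to 24.0%) were lost. These lay in the surroundings of 29 members, at most 4 near any one, with 11 of them near the 3 members that had the most. Around the other 202 members it was 71 of 783 (9.07%, interval 7.15 to 11.3%), and around 4531 wider regions that reached a percentile of 90 in all 6 lists it was 11.5%. Among neighbours with a −log10 q of at least 10 in both 0 h lists, 17 of 554 (3.07%) were lost, where 4.02% of all such regions were. The intervals cover counting error only, and neighbours near each other are not independent.

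Presence of a peak in each library was also read over the 1799 neighbouring regions. They held a peak in 67.3% and 69.6% of cases (0 h), 64.4% and 67.1% (1 h) and 58.8% and 65.6% (24 h). The shares of all non-member regions were 69.02% and 70.5%, 65.01% and 67.4%, and 58.3% and 65.7%. The 6 shares had the same order as the lengths of the 6 lists. The mean share was 62.2% ± 4.87 at 24 h and 68.5% ± 1.61 at 0 h (SD, n = 2 each), with an exact two-sided permutation p of 0.333, the smallest that 2 against 2 libraries can give. At 1 h it was 65.8% ± 1.93, with an exact permutation p of 0.333 against 0 h, and 0.667 for 24 h against 1 h.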

How the data were processed

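One deposited list of ATAC-seq peaks per library was used, on the build hg19. MACS2, Bowtie2, fastp and FastQC are named in the submitters' processing notes. Their versions and parameters, read shifting and duplicate removal are not given in the sources used here. Folds (a ratio), −log10 p and q values and summit offsets are as the authors deposited them, and the deposited score was not used. Peaks were merged at 1 bp (Python 3.11.15, numpy 2.4.6, pandas 2.3.3, scipy 1.17.1). Under MACS2's usual formulas (pseudocount of 1, Poisson p), 100% of peaks had a whole pileup that gave their −log10 p to within 0.001. Depth is known only through it, and the relative depth is the most frequent background over the shortest peak. Coordinates are 1-based. Rule and calls were tested on simulated lists, in which folds varied far less between libraries than between replicates here. That test checks the code and does not measure how reliable the calls are in these data. Members and lists were chosen with earlier results of these data known. Named regions are the 5 strongest members, the 5 with the largest rank differences each way for 24 h against 0 h among those without overlap, the 3 nearest the median strength, the 3 narrowest, the 3 closest pairs and 3 on each side of each limit. A test of member widths between times had been planned and is not given, since the rule used widths. Motif shares, planned for a genome of the files' build, were not run. Genes per Mb come from RefSeq GRCh38.p14 gene counts divided by the position of the last peak on each chromosome in hg19. Replicate numbers did not pair the libraries (see the closing part). Libraries were left out in turn, and limits, ranking, list length, merging and neighbour distance were varied.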

Additional observations from a re-analysis of the deposited data

Results flagged for a closer look

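Peaks on the mitochondrial genome were outside all comparisons. Each list held 2 or 3 of them, and the highest summit pileup there was 293 and 209 tags in the 0 h libraries, 319 and 294 tags in the 1 h libraries, and 274 and 246 tags in the 24 h libraries. The highest pileup of any member was 193 and 149, 164 and 175, and 173 and 154 tags in the same libraries. The highest mitochondrial fold was 1.64 to 1.95, below the fold of every member.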

How the results depend on the processing

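The choice of limits set which regions are members, and the median summit distance ranged over 27 to 49 bp under the settings run. With a width limit of 300 bp there were 26 members, a median summit distance of 27 bp, 38.5% lower and 0% higher at 1 h against 0 h, 26.9% lower and 11.5% higher at 24 h against 0 h (the opposite direction) and 19.2% both lower and higher at 24 h against 1 h. With a percentile limit of 90 the values were 68 members, 32.5 bp and 18.8% of neighbours lost. Ranking by −log10 q gave 174, 37.5 bp and 9.10%, and a minimum −log10 q of 5 gave 157, 41 bp and 15.1%. Lists of one length gave 9.04% of neighbours lost, and neighbours within 20 kb 9.52%. A minimum −log10 q and lists of one length change which regions count as lost everywhere. The share of all regions lost under these 2 settings is not given. Ranks within the members alone, which remove a shift shared by all members, gave 15.6% lower and 20% higher at 1 h against 0 h. The direction was thus turned, and at 24 h against 1 h these ranks gave 20.4% lower and 21.9% higher. The cause of these moves was not tested. Leaving out each library in turn gave 310 (without 0h replicate 2) to 475 members (without 1h replicate 1), summit distances of 42 to 45 bp and 11.9% to 21.2% of neighbours lost. For 24 h against 0 h, 19.4% to 41.2% were then lower and 24.6% to 46.5% higher. For 1 h against 0 h it was 21.4% to 47.98% and 15.9% to 33.9%, and for 24 h against 1 h 13.2% to 29.9% and 30.6% to 47.5%. The direction turned for 24 h against 0 h without 0h replicate 1 (41.2% lower, 37.2% higher) and for 1 h against 0 h without 0h replicate 2 (30.6% lower, 33.9% higher). Each such setting changes the members, and it loosens the condition only for the time that loses a library. It does so for all other regions too, single-peak regions among them, and their shares under these settings are not given.

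With the replicate block, which asks only same-numbered libraries to differ, 29.3% of members were lower at 24 h than at 0 h. Differences between replicates correlated across single-peak regions by 0.016 to 0.043 between times, so the numbers were not taken as pairs. Over the members alone the value for 24 h and 1 h was −0.11, and crossed pairs, tried after seeing the data, gave 22.6% lower at 24 h than at 1 h. Leaving out members with a mean percentile of 99 or more, also added afterwards, gave a summit distance of 49 bp and moved no share of members or neighbours by over 1.5 times. Motif shares were not run, as they need the hg19 sequence. Depth limits the ranking of single weak members, with median pileups over all members of 28.5 to 36 tags.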
